A study of Mus musculus with 8 samples.

Results

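Topoisomerase transcripts and those of the tyrosyl-DNA phosphodiesterases were followed in mouse mammary tumors after treatment with an antibody that carries a topoisomerase I inhibitor. The genes were taken by symbol from a table of 54532 genes, and all 8 were found: Top1, Top1mt, Top2a, Top2b, Top3a, Top3b, Tdp1, and Tdp2. The tumors were grown under the skin of 6-week-old female BALB/cJ mice from 4T1-FLuc, a luciferase-carrying form of the murine triple-negative breast cancer line 4T1, which the sample labels give as 4T1. Mice received saline (control; n = 4), called PBS in another label field, or mAb-DXd/IMQ (n = 4), labelled HumCD276-Dxd/IMQ, at 16 mg/kg by tail vein every 4 days for 5 courses. The conjugate joins a humanized anti-CD276 antibody to DXd, a camptothecin-type inhibitor of DNA topoisomerase I, and to IMQ, an imidazoquinoline that activates the innate immune receptors TLR7 and TLR8. The saline mice received neither the antibody nor a payload, so effects of these components cannot be told apart. Tumors were collected at the end of the study and sequenced in bulk, and total counts per tumor ranged from 45019927 to 69582375 in the saline group and from 34591912 to 51625237 in the mAb-DXd/IMQ group. The paper reports that mAb-DXd/IMQ tumors were by then far smaller on average than saline tumors. It also reports extensive death of tumor cells in sections of the treated groups. Tumor size and cell death thus differed with treatment, and their part in the values below was not tested. In bulk tissue, fewer cells of a type and less RNA per cell cannot be told apart.

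DNA topoisomerases relieve the twisting that replication and transcription build up, by cutting DNA and holding the cut end on a tyrosine of the enzyme until the strand is rejoined. Drugs of the camptothecin family trap the enzyme TOP1 on the cut strand, and the trapped cleavage complex becomes a lesion when a replication fork or a polymerase meets it. TDP1 removes the remnant of TOP1 from a DNA 3' end, and TDP2 does the same for TOP2 at a 5' end. Proteases, SUMO and ubiquitin ligases, nucleases, and the repair pathways for single-strand and double-strand breaks take part before and after that step.

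The labelled origin was checked first. Epithelial markers were abundant in every tumor: the summed level of 7 markers was 2638.6, 1828.7, 2578.3, and 2239.1 CPM (counts scaled to library size, with TMM factors) in the saline tumors and 3497.6, 2684.4, 2145.1, and 2120.2 CPM in the mAb-DXd/IMQ tumors, with Krt18 at a mean of 637 CPM and 718 CPM, respectively. Of the receptors whose protein is lacking in triple-negative disease, Pgr was at 0.367 ± 0.28 CPM in saline and 0.578 ± 0.19 CPM in mAb-DXd/IMQ tumors (SD, n = 4), whereas transcripts of Erbb2 (102.2 and 100.9 CPM) and Esr1 (19.1 and 15.7 CPM) were present in both groups. Bulk tissue does not say which cells those transcripts came from.

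None of the 8 genes passed the thresholds. With edgeR's quasi-likelihood test, at a false discovery rate (FDR) under 0.05 together with a log2 fold change beyond 0.58 in either direction, 0 of 8 were called, beside 197 of 18511 tested genes (1.06%; 101 higher and 96 lower). The 197 became 10 to 203 with a tumor left out, and 14 with replicate number as a block. With the FDR threshold alone the count was again 0 of 8, beside 246 tested genes (1.33%). At an unadjusted p under 0.05, 2 of 8 were counted, Tdp1 and Tdp2, beside 18.9% of all tested genes, and DESeq2 and limma-voom also called 0 of 8 with FDR and fold change together, beside 787 of the 17773 genes with an adjusted p in DESeq2 (4.43%) and 174 of 18511 in limma-voom (0.94%). With the FDR threshold alone, limma-voom counted 0 of 8, beside 1.13% of its genes, and DESeq2 counted 1 of 8, Tdp2, beside 7.8%. Saline and mAb-DXd/IMQ values did not overlap for 1 of 8, Tdp2, beside 13.1% of tested genes in either direction and 5.97% with the mAb-DXd/IMQ tumors on the higher side. In 5 of the 8 genes the log2 fold change was positive and in 3 it was negative, with a median of 0.17 beside 0.02 over all tested genes. Over all tested genes, 52.6% had a positive value. All 8 passed the filter on low counts, and the fewest counts in any tumor were 323, for Top1mt.

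**Figure D1:**
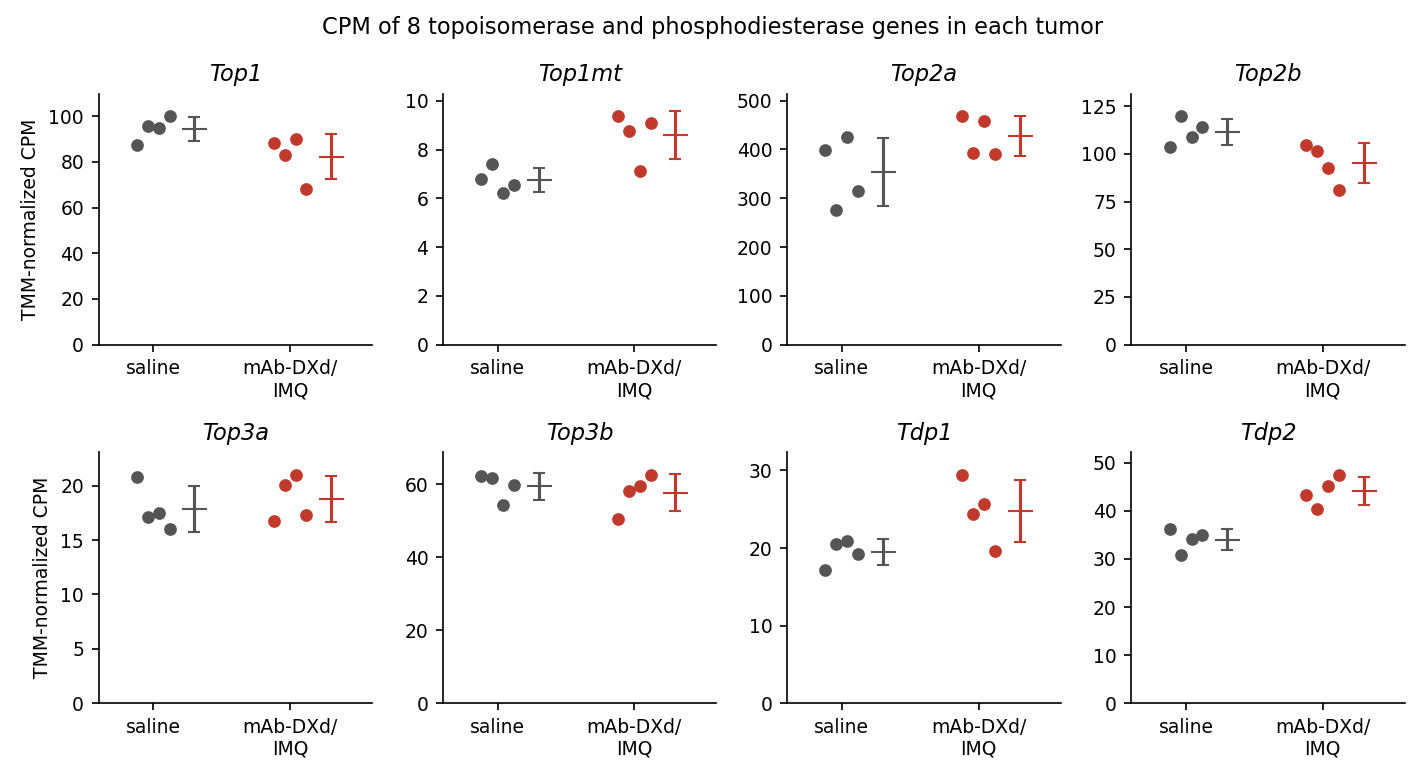
TMM-normalized CPM (y axis, from 0) of each gene in the 4 saline tumors (grey) and the 4 mAb-DXd/IMQ tumors (red), in order of replicate number, with the mean and SD beside the points. The groups are separate for Tdp2 (30.9 to 36.2 CPM against 40.4 to 47.5 CPM) and overlap for the other 7 genes.

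Top1 encodes the nuclear type IB enzyme that DXd traps. The gene (ENSMUSG00000070544) is protein coding and lies at chr2:160645888-160722764 on the plus strand of GRCm38. Its level was 87.3, 95.5, 94.7, and 99.9 CPM in the saline tumors and 88.0, 82.8, 89.9, and 68.3 CPM in the mAb-DXd/IMQ tumors. The fourth mAb-DXd/IMQ tumor was the lowest of all 8, and tumors 1 and 3 of that group lay within the saline range. The means were 94.4 ± 5.26 and 82.3 ± 9.76 CPM (SD, n = 4), a log2 fold change of −0.20 ± 0.11 (SE) with a 95% confidence interval from −0.44 to 0.04 (edgeR FDR = 0.361). Without the fourth mAb-DXd/IMQ tumor the difference was −0.11. The interval lay above −0.58, the size of change needed for a call.

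Long genes tended to have lower values in the mAb-DXd/IMQ tumors: across the 18511 tested genes, which are not independent replicates, log2 fold change and gene length had a Spearman correlation of −0.21. Top1 is among the long ones, with 10426 annotated exon bases. With an offset for gene length and GC content in each tumor, chosen after seeing the data, its log2 fold change was −0.05 ± 0.10 (SE; edgeR FDR = 0.854, and from 0.259 to 0.882 over the alternatives other than the test against the fold threshold). The part of gene length in the uncorrected value was not tested beyond that offset.

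Top1mt, the related enzyme that works on mitochondrial DNA and is encoded in the nucleus (ENSMUSG00000000934, chr15:75657035-75678800, minus strand), was the least counted of the 8. Its values were 6.81, 7.40, 6.23, and 6.57 CPM in the saline tumors and 9.36, 8.78, 7.14, and 9.08 CPM in the mAb-DXd/IMQ tumors. Only the third mAb-DXd/IMQ tumor fell within the saline range. The log2 fold change was 0.35 ± 0.17 (SE; edgeR FDR = 0.287), and 0.26 with the length and GC offset.

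The transcripts made from mitochondrial DNA, the template of TOP1MT, gave 0 calls among 13 tested. Of these, 12 had a positive and 1 a negative log2 fold change, with a median of 0.21, beside 52.6% positive over all tested genes. They ranged from mt-Nd5 at −0.07 to mt-Atp6 at 0.30 (edgeR FDR = 0.877 and 0.323), the latter a gene whose reads may be shared with nuclear copies. Without the first mAb-DXd/IMQ tumor the value of mt-Nd5 was 0.079. Their summed level was 24265.8, 24559.8, 24256.5, and 23858.2 CPM in the saline tumors and 18510.9, 30528.8, 28091.3, and 34499.2 CPM in the mAb-DXd/IMQ tumors, led by mt-Co1. The first mAb-DXd/IMQ tumor had the lowest mitochondrial sum of all 8 and the highest Top1mt value in CPM. As TPM (counts per exon base, scaled to one total in every tumor), Top1mt was instead highest in the fourth mAb-DXd/IMQ tumor. It was at 12.3 TPM there, beside 11.4 TPM in the first, and the fourth also had the highest mitochondrial sum.

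Top2a and Top2b encode the type II enzymes, which pass one duplex through a break in another. TOP2A accumulates in dividing cells and serves chromosome condensation and separation, and TOP2B is also made in cells that do not divide. Top2a (ENSMUSG00000020914) lies at chr11:98992943-99024189 on the minus strand, and Top2b (ENSMUSG00000017485) at chr14:16365179-16435462 on the plus strand. Because Top2a varied together with mitotic genes, its promoter window is shown beside that of Top2b. Both are 300 bases from RefSeq (GRCm38.p6), from 250 before to 50 after the annotated start, chr11:99024140-99024439 (minus strand) and chr14:16364956-16365255 (plus strand). Capitals mark CCAAT, searched on both strands and so also written ATTGG, and TTTGAA, the core of the cell cycle homology region of mitotic promoters, also written TTCAAA.
Top2a: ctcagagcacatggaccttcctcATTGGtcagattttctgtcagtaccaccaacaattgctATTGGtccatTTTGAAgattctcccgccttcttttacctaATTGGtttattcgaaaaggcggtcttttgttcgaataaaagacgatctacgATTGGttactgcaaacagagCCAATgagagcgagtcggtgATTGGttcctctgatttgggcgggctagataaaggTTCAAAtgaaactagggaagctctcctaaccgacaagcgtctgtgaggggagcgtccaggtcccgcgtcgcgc
Top2b: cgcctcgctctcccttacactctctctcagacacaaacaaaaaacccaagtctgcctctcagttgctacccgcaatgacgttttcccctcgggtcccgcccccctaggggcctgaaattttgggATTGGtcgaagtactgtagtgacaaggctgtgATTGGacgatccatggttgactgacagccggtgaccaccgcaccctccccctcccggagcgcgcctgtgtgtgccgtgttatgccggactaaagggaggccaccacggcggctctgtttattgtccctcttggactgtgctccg

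The Top2a window held 6 CCAAT and 2 TTTGAA matches, none overlapping, and the Top2b window 2 CCAAT and 0 TTTGAA. Of 32851 promoter windows, 37.4% held at least 1 CCAAT, 11.7% at least 2, and 26 windows (0.079%) at least 6. TTTGAA was in 17.9% of all windows. A RefSeq window was found for 5 of the 8 genes, and the windows of Top1, Top3b, and Tdp1 held 0, 1, and 0 CCAAT and 0, 0, and 1 TTTGAA. Among 20 G2 and mitosis genes, 16 had a window, of which 13 held CCAAT and 11 TTTGAA. A match describes the letters of the window, not the binding of a factor.

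Top2a was the most counted of the 8 genes, at 398, 276, 426, and 315 CPM in the saline tumors and 468, 393, 458, and 390.2 CPM in the mAb-DXd/IMQ tumors. Saline tumors 2 and 4 were the lowest, and the other 2 saline tumors lay among the mAb-DXd/IMQ values. The means were 354 ± 70.03 and 427 ± 41.1 CPM (SD, n = 4), a log2 fold change of 0.27 ± 0.15 (SE; 95% confidence interval −0.06 to 0.61; edgeR FDR = 0.364). Leaving out the second saline tumor gave 0.17, and the length and GC offset gave 0.40.

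Top2b was at 103.6, 119.7, 108.6, and 114.3 CPM in the saline tumors and 104.4, 101.6, 92.6, and 81.2 CPM in the mAb-DXd/IMQ tumors. The groups overlapped only through the first tumor of each. The log2 fold change was −0.23 ± 0.11 (SE; 95% confidence interval −0.47 to 0.01; edgeR FDR = 0.278). Top2b is the longest of the 8 genes, with 14613 exon bases, and with the length and GC offset its log2 fold change was −0.05. The log2 ratio of Top2a to Top2b within a tumor, per length, was 2.64, 1.90, 2.67, and 2.16 in saline and 2.86, 2.65, 3.00, and 2.96 in mAb-DXd/IMQ tumors, overlapping at the second mAb-DXd/IMQ tumor. Its group means were 2.34 and 2.87, or 2.63 and 3.16 with the longest coding transcript as length.

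Across the 8 tumors, Top2a followed the mean log2 CPM of the 20 G2 and mitosis genes, a list that includes Mki67, Cdk1, and Ccnb1 but not Top2a. Pearson's r was 0.97 (exact permutation p = 0.000446, n = 8) and Spearman's rho 0.79 (exact permutation p = 0.0279, n = 8), unadjusted among 8 such relations, 1 per gene. Within groups, after subtracting each group's mean, r was 0.96, and without the 2 tumors farthest from the median, saline tumors 2 and 4, it was 0.80. For Top2b, r was −0.58 (exact permutation p = 0.131, n = 8), rho −0.69 (exact permutation p = 0.0694), and r within groups −0.16. Tdp2 had a rho of 0.83 (exact permutation p = 0.0154, n = 8) and an r of 0.77 (exact permutation p = 0.0193, n = 8), 0.46 within groups, and 0.45 without those 2 tumors. The other 5 genes had r between −0.59 and 0.59, at exact permutation p of 0.119 or more, and rho at exact permutation p of 0.0576 or more. Without saline tumors 2 and 4, r was 0.87 for Tdp1, which had 0.20 within groups, and −0.76 for Top3b, which had −0.62 within groups. It was 0.54 for Top1mt, −0.49 for Top3a, 0.16 for Top1, and 0.10 for Top2b, and for Top3a and Top1 its sign differed from that over all 8 tumors, as it did for Top2b.

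**Figure D2:**
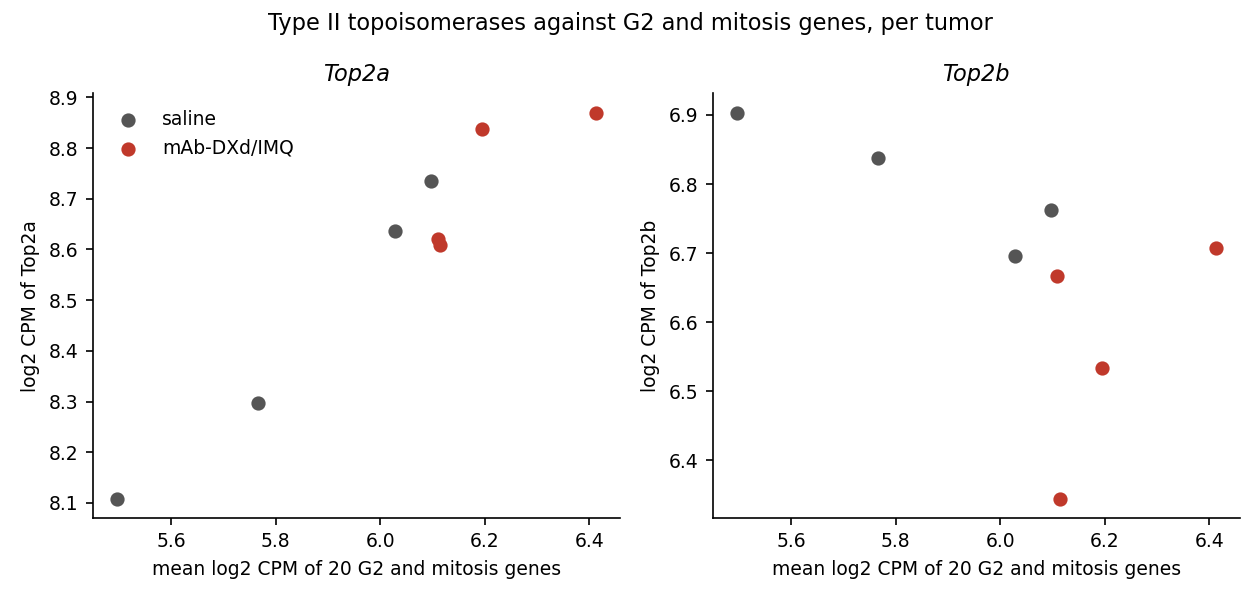
Log2 CPM of Top2a (left) and Top2b (right) against the mean log2 CPM of 20 G2 and mitosis genes, 1 point per tumor, saline in grey and mAb-DXd/IMQ in red; neither axis starts at 0. Top2a increases with the list from the second saline tumor at the lower left (r = 0.97), and Top2b shows r = −0.58.

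The mitotic list itself gave 0 calls of 20, although all 20 log2 fold changes were positive, with a median of 0.31 beside 0.02 over all tested genes. Its summed level was 1497.1, 1042.7, 1585.3, and 1266.2 CPM in the saline tumors and 1878.1, 1582.4, 1713.7, and 1632.4 CPM in the mAb-DXd/IMQ tumors. The ends of the list were Ccnb2, the cyclin B2 gene, at 0.63 (edgeR FDR = 0.117) and Kif11, a spindle motor gene, at 0.04 (edgeR FDR = 0.935), which was −0.11 without the first mAb-DXd/IMQ tumor and −0.07 without the second saline tumor. Bub1, a spindle checkpoint kinase gene at 0.63 (edgeR FDR = 0.058), was called in 4 alternatives, DESeq2 among them. DESeq2 also called Ccnb2, so that 2 of the 20 were called there, beside 4.43% of all its genes. Cenpf, a kinetochore gene named after its values were seen, was at 0.58 (edgeR FDR = 0.0658) and was called in 3 alternatives, at 0.74 with the length offset, 0.75 with the length and GC offset, and 0.68 without the first saline tumor (edgeR FDR = 0.0414, 0.0399, and 0.0499). The 7 epithelial markers, with 0 calls in edgeR and in DESeq2, likewise had 7 positive log2 fold changes, with a median of 0.29, although that of Krt8, at 0.01, was negative in 8 alternatives, limma-voom among them. The groups overlapped in their summed level, and as in the mitotic sum the second saline tumor was the lowest, at 1828.7 CPM, and the first mAb-DXd/IMQ tumor the highest, at 3497.6 CPM. The part of the mitotic and epithelial genes in the Top2a difference was not tested.

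Among 10758 genes with a mean of at least 8 CPM, those most like Top2a in their deviations from the group means included Ckap2l (r = 0.986, n = 8), Bub1 (r = 0.985), Antxr2 (r = 0.976), and Mastl (r = 0.9753). Bub1, Ckap2l, and Mastl have roles in mitosis. For Top1 the closest were Prkar2a (r = 0.986, n = 8), Txnrd1 (r = 0.982), Mybbp1a (r = 0.981), Tmem65 (r = 0.971), and Hspa4 (r = 0.969). These are the highest values out of all genes compared and carry no test, and log2 fold changes of the genes named here ranged from −0.27 for Txnrd1 to 0.63 for Bub1 (edgeR FDR = 0.206 and 0.058), with 0 calls.

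Top3a and Top3b encode the type IA enzymes, which pass single strands. TOP3A works with BLM and the RMI proteins to dissolve joined DNA molecules and also acts in mitochondria, and TOP3B, with its partner TDRD3, acts on RNA as well. Top3a (ENSMUSG00000002814, chr11:60740058-60777365, minus strand) was at 20.8, 17.2, 17.5, and 16 CPM in the saline tumors and 16.7, 20.1, 21, and 17.3 CPM in the mAb-DXd/IMQ tumors. The groups overlapped throughout, and the log2 fold change of 0.07 ± 0.14 had a 95% confidence interval from −0.23 to 0.38 (edgeR FDR = 0.820). It was 0.014 without the third mAb-DXd/IMQ tumor and 0.15 without the first saline tumor.

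Top3b (ENSMUSG00000022779, chr16:16870736-16892990, plus strand) was at 62.1, 61.6, 54.2, and 59.7 CPM in the saline tumors and 50.5, 58.1, 59.5, and 62.5 CPM in the mAb-DXd/IMQ tumors. Of the 8 log2 fold changes, this one was the closest to 0, at −0.04 ± 0.10 (95% confidence interval −0.27 to 0.18; edgeR FDR = 0.865), and became 0.01 with upper-quartile scaling and 0.05 with the length and GC offset. Both intervals exclude a change of 0.58 in either direction. Of 5 partners of these enzymes, 0 were called, with a median of 0.23, from Rmi1 at 0.25 (edgeR FDR = 0.340) to Fmr1, the gene of an RNA-binding protein found with TOP3B, at −0.23 (edgeR FDR = 0.289).

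Tdp1 (ENSMUSG00000021177, chr12:99884517-99955219, plus strand), the gene of the enzyme that clears trapped TOP1, was at 17.2, 20.5, 20.9, and 19.3 CPM in the saline tumors and 29.4, 24.4, 25.7, and 19.7 CPM in the mAb-DXd/IMQ tumors. In 3 mAb-DXd/IMQ tumors the value was above every saline tumor, and tumor 4 lay within the saline range. Means were 19.5 ± 1.67 and 24.8 ± 4.03 CPM (SD, n = 4), and the log2 fold change was 0.35 ± 0.14 (SE; 95% confidence interval 0.04 to 0.66; edgeR FDR = 0.214). With the length and GC offset it was 0.44 (edgeR FDR = 0.124, and from 0.124 to 0.389 over the alternatives other than the test against the fold threshold).

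Tdp2 (ENSMUSG00000035958, chr13:24831679-24842153, plus strand), the gene of the TOP2 counterpart, was at 36.2, 30.9, 34.1, and 34.9 CPM in the saline tumors and 43.4, 40.4, 45.3, and 47.5 CPM in the mAb-DXd/IMQ tumors. All 4 mAb-DXd/IMQ tumors lay above all 4 saline tumors. The means were 34.03 ± 2.24 and 44.1 ± 3.01 CPM (SD, n = 4), 29.7% apart, with a log2 fold change of 0.37 ± 0.10 (SE; 95% confidence interval 0.15 to 0.60). It had the lowest FDR of the 8 genes (edgeR FDR = 0.0836), which is above 0.05. In DESeq2 the adjusted p was 0.0258, and over the alternatives other than the test against the fold threshold the range was 0.0258 to 0.224, with log2 fold changes from 0.33 to 0.42, all below 0.58. The length and GC offset left the log2 fold change at 0.37.

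**Figure D3:**
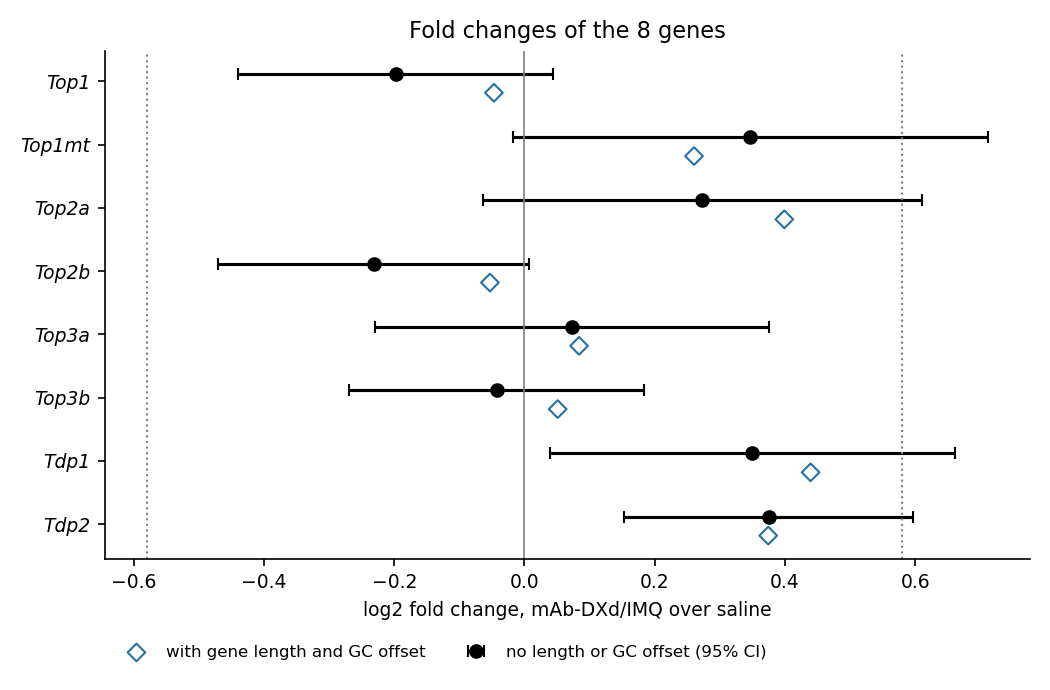
Log2 fold change, mAb-DXd/IMQ over saline, of each gene (black circles, with 95% confidence intervals from edgeR) and with an offset for gene length and GC content (open blue diamonds); dotted lines mark the threshold of 0.58 on either side. Top1 moves from −0.20 to −0.05 and Top2b from −0.23 to −0.05, and Tdp2 is at 0.37 in both.

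The proteins that strip a trapped topoisomerase down before TDP1 or TDP2 can reach the bond gave 0 calls among 9 tested genes, with a median log2 fold change of −0.08; Gcna was not tested. Pias1, a SUMO ligase gene, was at 52.6, 58.2, 53.6, and 53.2 CPM in the saline tumors and 38.1, 39.8, 36.3, and 35.9 CPM in the mAb-DXd/IMQ tumors. These groups did not overlap, and its log2 fold change of −0.54 passed the FDR threshold but not that of 0.58 (edgeR FDR = 0.0277). The highest of the list was Fam111a, a protease gene, at 0.09 (edgeR FDR = 0.748), or −0.0081 without the third mAb-DXd/IMQ tumor.

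The nucleases that can cut a trapped complex away without a phosphodiesterase also gave 0 calls of 12, with 9 log2 fold changes positive, 3 negative, and a median of 0.21. The share of positive values over all tested genes was 52.6%. Eme1, the partner subunit of the nuclease MUS81, was at 9.75, 5.84, 10.05, and 7.48 CPM in the saline tumors and 14.3, 12.9, 16.3, and 12.7 CPM in the mAb-DXd/IMQ tumors. No saline value reached a mAb-DXd/IMQ value, and the log2 fold change of 0.76 missed the FDR threshold (edgeR FDR = 0.0757) but was called in DESeq2, alone among the alternatives, where 4.43% of all genes were called. Eme1 overlaps other genes, so its counts are uncertain. The lowest of the list, Fen1, at −0.11 (edgeR FDR = 0.887) and at 0.074 without the fourth mAb-DXd/IMQ tumor, had a mean of only 1.66 CPM in saline tumors and overlaps Tmem258, so it is uncertain too.

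Single-strand break repair, which follows TDP1, gave 0 calls of 8 and a median of 0.00163, with Polb, the gap-filling polymerase gene, at 0.26 and Lig3, a DNA ligase gene, at −0.32 (edgeR FDR = 0.247 and 0.120). Both had groups that did not overlap. Non-homologous end joining, which takes over the double-strand ends that TDP2 clears, gave 0 calls of 8 and a median of −0.03, between Lig4 at −0.37 and Xrcc6 at 0.19 (edgeR FDR = 0.439 and 0.374).

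**Figure D4:**
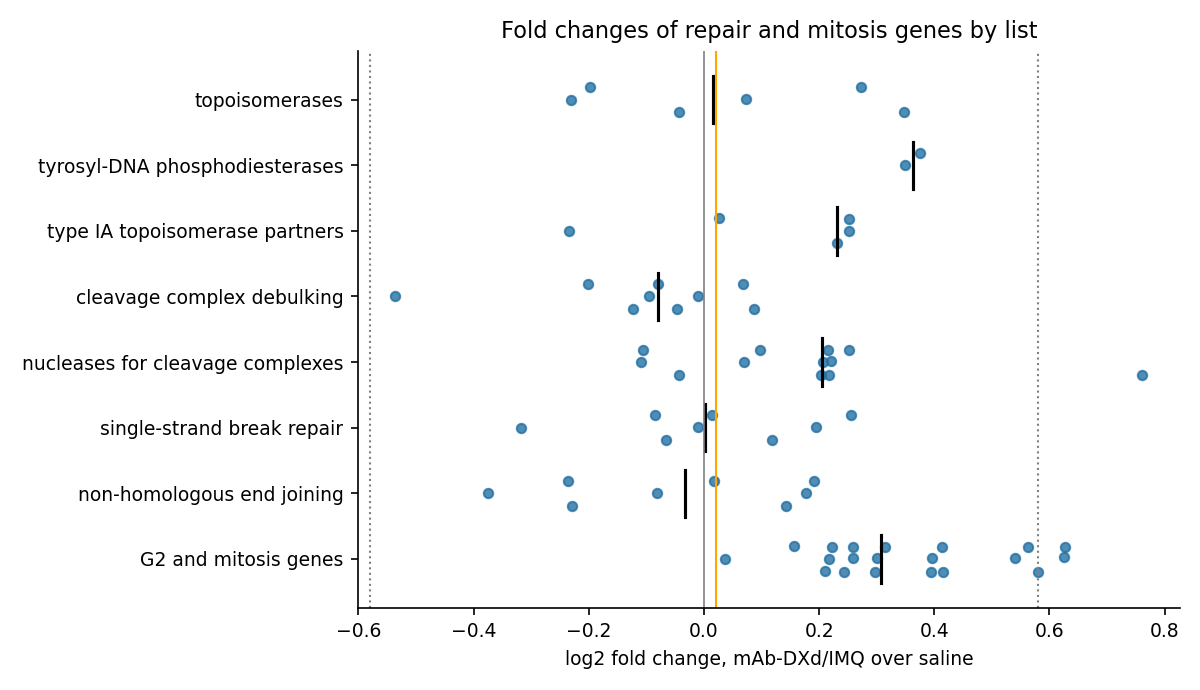
Log2 fold change, mAb-DXd/IMQ over saline, of every tested gene in 8 lists (blue points, spread vertically only to separate them), with each list's median as a black bar, the median of all 18511 tested genes as an orange line, and dotted lines at 0.58 on either side. The 20 G2 and mitosis genes all lie above 0, with a median of 0.31, and the 6 topoisomerases lie on both sides, with a median of 0.02.

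Levels were compared between the genes per length, as TPM (counts per exon base, scaled to one total in every tumor, from the deposited gene lengths). Top2a was the highest, at 111.8 ± 23.4 TPM in saline and 133.3 ± 18.1 TPM in mAb-DXd/IMQ tumors (SD, n = 4), above 93.3% of tested genes on average over the 8 tumors. Tdp2 was next, at 29.5 ± 2.48 and 37.8 ± 4.84 TPM, followed by Top1, at 25.7 ± 0.96 and 22.2 ± 3.74 TPM. Thus transcripts of the enzyme DXd traps were less abundant than those of Top2a in all 8 tumors.

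Top2b, at 21.7 ± 1.00 and 18.2 ± 2.1 TPM, and Top3b, at 20.1 ± 1.5 and 19.4 ± 3.16 TPM, did not differ beyond their spread in either group. Nor did Top3a, at 11.08 ± 1.56 and 11.6 ± 2.33 TPM, and Top1mt, at 9.41 ± 0.72 and 11.7 ± 0.64 TPM. Tdp1 was the lowest, at 6.93 ± 0.46 and 8.70 ± 1.38 TPM, below Top1mt in all 4 saline tumors. In the mAb-DXd/IMQ tumors, Top1 and Top3b, and likewise Top3a and Tdp1, also lay within their spread of each other.

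**Figure D5:**
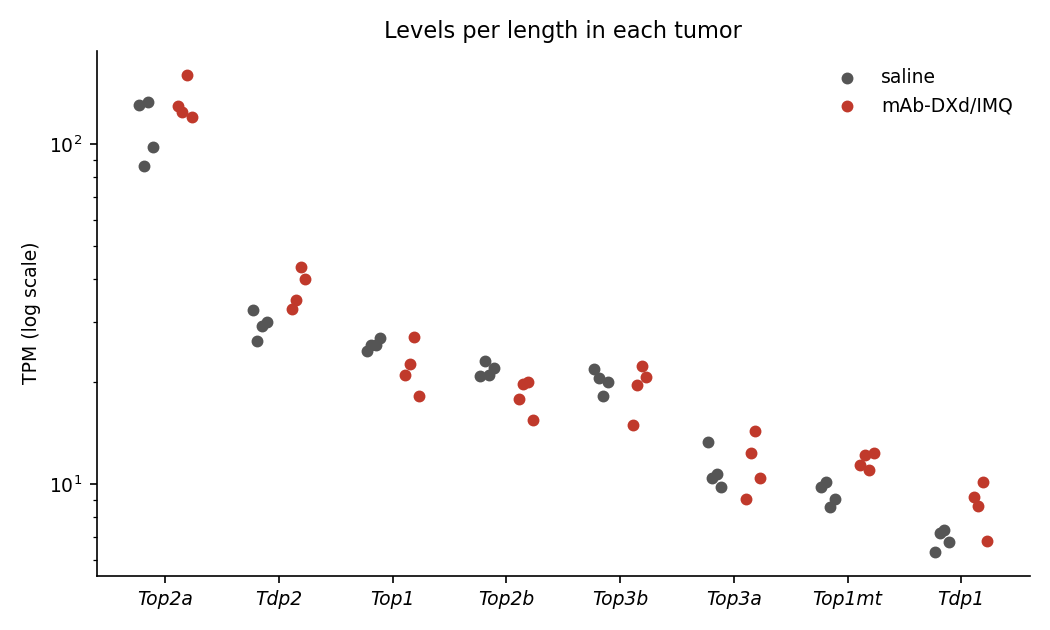
TPM (log scale) of each gene in every tumor, saline in grey and mAb-DXd/IMQ in red, ordered by the mean over all 8 tumors. Top2a lies from 85.9 to 159.9 TPM, above each of the other 7 genes in every tumor, and Tdp1 has the lowest mean.

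This order depends on the length used, since the deposited lengths add up all annotated exons of a gene. For Tdp1 that is 7988 bases, beside 2036 in its longest coding transcript in GENCODE M21, and for Top1 it is 10426 beside 3856. With the coding transcript as length, chosen after seeing the data, Top2a kept rank 1 in both groups, Top1 had rank 2 in saline and rank 3 in mAb-DXd/IMQ tumors, Tdp2 moved to rank 4 in saline, below Top1 and Top3b, and kept rank 2 in mAb-DXd/IMQ tumors, Tdp1 moved to rank 6 and 5, and Top1mt became the last in both.

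Ratios within a tumor do not depend on library size. The log2 ratio of Top1mt to Top1 was −1.33, −1.34, −1.57, and −1.58 in the saline tumors and −0.88, −0.89, −1.30, and −0.56 in the mAb-DXd/IMQ tumors. The groups did not overlap, with the third mAb-DXd/IMQ tumor close to the saline range. It was the only ratio of those compared here without overlap. This ratio carries no test, and the log2 fold changes of Top1mt and Top1 were 0.35 and −0.20, beside 0.26 and −0.05 with the length and GC offset. Top1mt has 2043 exon bases and Top1 10426, so the length trend enters this ratio. Overlap of the groups was not examined with the offset. The log2 ratio of Tdp2 to Tdp1 was 2.09 ± 0.21 in saline and 2.13 ± 0.30 in mAb-DXd/IMQ tumors, and that of Top3a to Top3b was −0.87 ± 0.16 and −0.75 ± 0.16 (SD, n = 4), each with overlapping groups. The size of these ratios also depends on the length used. With the coding transcript as length, the group means in saline and mAb-DXd/IMQ tumors were −2.79 and −2.24 for Top1mt to Top1, in place of −1.45 and −0.91. They were 0.86 and 0.90 for Tdp2 to Tdp1 and −2.02 and −1.90 for Top3a to Top3b, while the difference between groups is the same with either length.

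Markers of other cells varied between tumors beside these values, and their part in the values of the 8 genes was not tested. Of 9 leukocyte markers tested, 0 were called, 1 log2 fold change was positive and 8 were negative, from Ncr1 at 0.64 to S100a8 at −1.74 (edgeR FDR = 0.287 and 0.0521). DESeq2 called 3 of the 9, all lower, beside 1.96% of all its genes called lower, namely S100a8 at −1.74, Cd3e at −0.99, and Cd3d at −0.88 (DESeq2 FDR = 0.000141, 0.0156, and 0.0480), and S100a8 was also called in 5 edgeR alternatives, one of them without the second saline tumor. Cd3e and Cd3d are named here after their values were seen. The summed level of the leukocyte markers was 357, 886, 539, and 639 CPM in saline and 427, 367, 517, and 338 CPM in mAb-DXd/IMQ tumors, with Csf1r the most abundant. The second saline tumor, the highest in summed leukocyte markers, was the lowest in Top2a and in the G2 and mitosis genes. By mean log2 CPM the fourth saline tumor was the highest in leukocyte markers, at 4.450 beside 4.435 in the second.

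Fibroblast, endothelial, muscle, adipocyte, and epidermis markers also gave 0 calls in edgeR, among 8, 5, 6, 4, and 4 tested, and 1 in DESeq2 beside 4.43% of all its genes, Fap at 0.89 (DESeq2 FDR = 0.0107), with Lep, Krt1, and Krtdap too low to test. Their sums had means of 5124.7 and 5086.4, 142.3 and 177.7, 241.3 and 193.8, 23.8 and 22, and 120.02 and 255.8 CPM in saline and mAb-DXd/IMQ tumors, led by Col1a1, Pecam1, Acta1, Fabp4, and Krt14. The adipocyte and epidermis sums rested mostly on Fabp4 and Krt14, so they need not be levels of fat or skin. Krt14 was at 207.9 CPM in the first mAb-DXd/IMQ tumor, where Krt5 was at 0.206 CPM. Fabp4 was at 23.3 CPM in the second saline tumor, where Adipoq, Plin1, and Cidec were at 0 CPM. The highest and lowest log2 fold changes were 0.90 for Fap and −0.48 for Pdgfra, 0.67 for Tek and 0.23 for Pecam1, 0.19 for Tnnt3 and −0.88 for Ckm, −0.08 for Fabp4 and −0.72 for Adipoq, and 1.98 for Krt5 and 0.49 for Sbsn, in the same order of lists. The signs of 4 of these turned with a tumor left out. Without the second mAb-DXd/IMQ tumor Krt5 was −3.71 and Sbsn −0.26, without the second saline tumor Tnnt3 was −0.13, and Fabp4 was 0.15 without the fourth saline tumor and 0.06 without the third mAb-DXd/IMQ tumor. Krt5 was also negative in the 3 fits with a replicate block, at −1.07 with the block alone. Among the epithelial markers, also with 0 calls of 7, they were 0.82 for Cldn7 and 0.01 for Krt8. The second mAb-DXd/IMQ tumor, at 479 CPM, held the highest epidermis sum, with Krt14 at 328.1 CPM and Krt5 at 112.2 CPM. Its values of the 8 genes lay inside the range of the other 3 mAb-DXd/IMQ tumors in 7 cases, Tdp2 being slightly lower. Any part of epidermis in those values was not tested.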

How the data were processed

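The authors deposited raw counts per gene for the 8 tumors, with no normalization, and a length per gene. The submitters' processing notes name HISAT2, HISAT, TopHat2, and mm39; however, 98.3% of the gene IDs shared with GENCODE M21 had its GRCm38 positions, the 8 genes included, so GRCm38 coordinates are printed. The counting program and strandedness are not given in the sources used here, so reads of overlapping antisense genes cannot be separated; genes overlapping Top1mt, Top2a, Top2b, Top3b, and Tdp1 had at most 0.975% of the respective gene's counts. Groups came from the labels, and no duplicated library was found.

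Tests were run with edgeR 4.0.16, DESeq2 1.42.0, and limma 3.58.1 under R 4.3.3, and figures with matplotlib 3.10.9 under Python 3.11.15. The study's methods name a later edgeR version. Genes were kept by filterByExpr (minimum count 10, minimum total 15), scaled by TMM, and tested with edgeR's quasi-likelihood test without covariates, with Benjamini-Hochberg adjustment over all 18511 tested genes. The fold change threshold is that of the study's methods. Standard errors and intervals were approximated from the F statistic. Log2 values for correlations used a prior count of 2. A floor of 3 counts was 0.0431 to 0.0867 CPM, which covers counting error only. The pipeline was tested on simulated data, where it missed many changed genes of low counts and small folds. A first limit on recovery over all genes was not met and was replaced by one for genes of at least 10 CPM changed at least 2-fold, which was met; Top1mt and some other printed genes lie below that level.

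Named genes were the 8 genes, the highest and lowest log2 fold change of every other list with any gene past both thresholds, and the 5 genes closest to Top1 and to Top2a, of which 1 for Top2a is not reported here; others are named as examples of a list or as its most abundant gene. The genes and lists were chosen with earlier results of these data known. Alternatives were other scalings, filters, tests, and thresholds, a replicate block, length and GC offsets, other lengths for TPM, and each tumor left out.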

Additional observations from a re-analysis of the deposited data

Results flagged for a closer look

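Of 138 groups of 4 tumors examined for a single distant value, 5 held one, and chance alone gives about 1 in 20 such groups. None of the 16 groups of the 8 topoisomerase and phosphodiesterase genes was among them. Krt5, a keratin of the epidermis, was at 112.2 CPM in the second mAb-DXd/IMQ tumor and at most 1.05 CPM in the other 3, and without that tumor its log2 fold change was −3.71. Sbsn, also an epidermis gene, was at 5.60 CPM in the first saline tumor beside at most 2.62 CPM in the others. The mitochondrial transcript mt-Atp6 was at 71.6 CPM in the first mAb-DXd/IMQ tumor, and the others were at 112.96 CPM or more. Hspa4, one of the genes closest to Top1, was at 198.6 CPM in the first saline tumor beside at least 220.03 CPM. The summed level of the genes that strip trapped topoisomerases was 928 CPM in the first saline tumor beside at least 972 CPM in the others.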

How the results depend on the processing

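In all 23 alternatives, 0 of the 8 genes were called. Of 184 alternative values of their log2 fold changes, 178 kept the sign and 6 did not, all of Top3b: 0.0073 with upper-quartile factors, 0.064 with the length offset, 0.061 with that and a replicate block, 0.051 with the length and GC offset, 0.046 with that and the block, and from −0.087 to 0.013 over the tumors left out. The cause was not tested. With upper-quartile factors the median of all genes was 0.069.

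The number of genes called among all genes varied more. Beside 197, it was 358 with no filter on low counts (more genes tested), 787 in DESeq2, 7 in the test against the fold threshold, 120 with the length offset, and from 10 (without the third saline tumor) to 203 (without the first) with a tumor left out. It was 111 without the second saline tumor, 11 without saline tumor 4, and 76, 88, and 12 without mAb-DXd/IMQ tumors 2, 3, and 4, each with fewer samples. Higher against lower calls were 101 to 96, and 145 to 73 with upper-quartile factors and 74 to 46 with the length offset. They were 9 to 1 and 9 to 2 without saline tumors 3 and 4, 10 to 2 without mAb-DXd/IMQ tumor 4, and 10 to 4 with replicate number as a block. With replicate number as a block the count was 14, and it was 12 and 13 with the length and the length and GC offsets added. The numbers mark different mice, and deviations of tumors 1 to 4 from their group means correlated between the groups at −0.17, −0.055, 0.079, and −0.067, so they share only a number. Only the third saline tumor correlated best with its own number.

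For the other genes named by rule, 877 of 918 values kept sign and call, 14 passed the thresholds where the main value had not (Bub1, S100a8, Eme1, Ccnb2, Fap, and, without a fold limit, Pias1), and 27 changed sign. The latter were of Krt8 (−0.029 in limma-voom, −0.023 with the block, −0.062 with the length offset, −0.093 with both, −0.086 with length and GC, −0.117 with those and the block), Krt5 (−1.07, −1.10, and −1.13 with the block alone, with length, and with length and GC), Ckap2l (0.013 with upper-quartile factors), Antxr2 (0.012 with block, length, and GC), and of genes with a tumor left out. Over the tumors left out, values ranged from −0.17 to 0.131 for Krt8, −3.71 to 3.62 for Krt5, −0.148 to 0.076 for Ckap2l, −0.11 to 0.132 for Kif11, −0.126 to 0.408 for Tnnt3, −0.248 to 0.154 for Fabp4, −0.17 to 0.079 for mt-Nd5, −0.26 to 0.894 for Sbsn, −0.0081 to 0.155 for Fam111a, and −0.306 to 0.074 for Fen1.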
